A study of Homo sapiens with 9 samples.

Results

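The aryl hydrocarbon receptor group comprised 7 genes of 56865 summed: the receptor AHR, its dimer partner ARNT, the feedback repressors AHRR and TIPARP, and the target enzymes CYP1A1, CYP1B1 and ALDH3A1. They were chosen by name, for their place in the receptor's pathway, and all 7 were looked up in each of the 9 libraries. AHR had no reads in 3 of these libraries. The libraries were poly(A)-selected RNA of BxPC3, a human pancreatic adenocarcinoma cell line that the labels give as p53Y220C/-, the same in every group. The 3 groups were MS172, PK9328 and the vehicle DMSO, with 3 libraries each. PK9328 is described as a small molecule that binds mutant p53, and the labels give no further detail on MS172. The treatment text gives 5 µM for 6 h, but it writes MS78 where the titles write MS172, so for MS172 the dose and time are taken from wording about a differently named compound. Nothing states that replicates were separate cultures, and p-values therefore reflect the scatter among these libraries alone, possibly only technical scatter. The comparisons below ask whether transcripts that the ligand-bound receptor is known to induce were higher with either compound.

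AHR is a ligand-activated transcription factor of the bHLH-PAS family, held in the cytosol by an HSP90 chaperone complex. When a ligand such as a dioxin, a polycyclic aromatic hydrocarbon or a tryptophan metabolite binds, it enters the nucleus, pairs with ARNT and binds response elements near its target genes. CYP1A1 is the target most used to read receptor activity, and AHRR and TIPARP are induced with it and limit the response. In the pancreas, as in other epithelia, the pathway is best known for xenobiotic metabolism.

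Each library held between 24077353 and 28031886 estimated reads. A filter on low counts left 13914 genes for testing. Levels are in CPM, which scales a gene's reads to the TMM-adjusted library size, unless TPM, which is also scaled to transcript length, is named. A gene is said to rise or fall where edgeR's Benjamini-Hochberg adjusted p was under 0.05. Estimated fragment length was 274.4 to 293.1 bases in MS172 libraries, 249.8 to 263.2 in PK9328 libraries and 281.5 to 289.4 in DMSO libraries, so the PK9328 libraries stood apart. Of 10 ductal and epithelial markers, EPCAM (at most 0.0745 CPM), CDH1 (0.0417 CPM) and KRT7 (0.103 CPM) were nearly absent, while KRT18 reached 984 CPM, KRT8 864 CPM, SOX9 381 CPM, KRT19 367 CPM and CLDN4 218 CPM. Of 7 mesenchymal markers, VIM reached 10400 CPM and COL1A2 2550 CPM, while FN1 (at most 0.775 CPM), CDH2 (0.171 CPM) and THY1 (0.0816 CPM) were nearly absent. The cell type is therefore given only as labelled. The 10 ductal and epithelial markers summed to 2630 to 2790 CPM with MS172, 2010 to 2090 CPM with PK9328 and 2160 to 2330 CPM with DMSO, and the 7 mesenchymal markers to 12300 to 12800 CPM with MS172, 9880 to 10100 CPM with PK9328 and 11700 to 11900 CPM with DMSO. VIM and COL1A2 fell with PK9328 against DMSO, by 0.20 and 0.41 on the log2 scale (edgeR adjusted p = 0.00071 and 5.9e-09). The epithelial markers CLDN4 and KRT8 fell there too, by 0.27 and 0.14 (3.7e-05 and 0.016). The markers of these lists called with MS172 against DMSO all rose. They were CLDN4 (0.78, edgeR adjusted p = 1.8e-15), SOX9 (0.29, 0.02), KRT18 (0.27, 4e-06), KRT8 (0.19, 0.00028), KRT19 (0.19, 0.00023) and VIM (0.11, 0.041). The part of these shifts in the results was not tested. In bulk RNA, fewer cells that express a gene and less of its RNA per cell cannot be told apart.

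The response element that AHR and ARNT bind holds the core GCGTG, read as CACGC on the other strand. The windows below show every such core within the 250 bases before the RefSeq gene starts (GRCh38.p14) of the members for which a promoter was used. They are shown because they place the core letters of the receptor's motif near RefSeq starts of the feedback repressors and CYP1A1. Not all of this sequence is outside the genes. The 250 bases before the CYP1A1 start, the TIPARP start at 156674590 and the AHRR start at 322610 overlap an exon of the same gene. TIPARP-201 begins at 156674342, CYP1A1-201 at 74725610 and AHRR-201 at 304176, so the cores shown lie inside the span of an annotated transcript. Each window is written 5′ to 3′ on the gene's strand with the core in capitals.
AHRR, chr5:321674-321698, plus strand, 30 bases before the start at 321714: cgggcggctcGCGTGccggggtggg
AHRR, chr5:322360-322384, plus strand, 247 bases before the start at 322610: ggcGCGTGacaggcaggggccaccc
AHRR, chr5:322558-322582, plus strand, 42 bases before the start at 322610: agaagggtggGCGTGtgcgcgcgtt
CYP1A1, chr15:74725571-74725595, minus strand, 57 bases before the start at 74725528: agggaaggagGCGTGgccacacgta
TIPARP, chr3:156674372-156674396, plus strand, 208 bases before the start at 156674590: cgagaaaggaCACGCcccctcgcgg
TIPARP, chr3:156674438-156674462, plus strand, 142 bases before the start at 156674590: aacgaacgcgCACGCgcgcgcaggg

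Promoters were matched for 5 of the 7 members. AHR and ARNT had 0 cores in this window, as did the other TIPARP starts in the table. The core is short, and 32.2% of 35116 promoters, or 36.2% of 27305 genes, held it on either strand in a window of that length. A match is a description of letters and not a bound site.

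AHR was barely detected, and the enzymes by which its activation is usually read did not rise with either compound by the test. Its partner ARNT was expressed and differed between all groups. Of the 6 members tested, 0 rose and 1 fell with MS172 against DMSO, where edgeR called 35.1% of all genes tested, 17.9% higher and 17.2% lower. With PK9328 against DMSO, 2 rose and 0 fell, where 15.5% of all genes were called, 7.98% higher and 7.48% lower. Between the compounds, 1 was higher and 2 were lower with MS172, where 47.7% of all genes were called, 23.3% higher and 24.4% lower. The member that fell with MS172 was ARNT, and those that rose with PK9328 were ARNT and TIPARP. Between the compounds, ALDH3A1 was higher and ARNT and TIPARP were lower with MS172. The median log2 fold change of the 6 members was -0.21 with MS172, 0.12 with PK9328 and -0.34 between MS172 and PK9328, beside -0.02, 0.00 and -0.03 over all genes tested. The comparisons with DMSO share the DMSO libraries and so are not independent of each other.

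**Figure D1:**
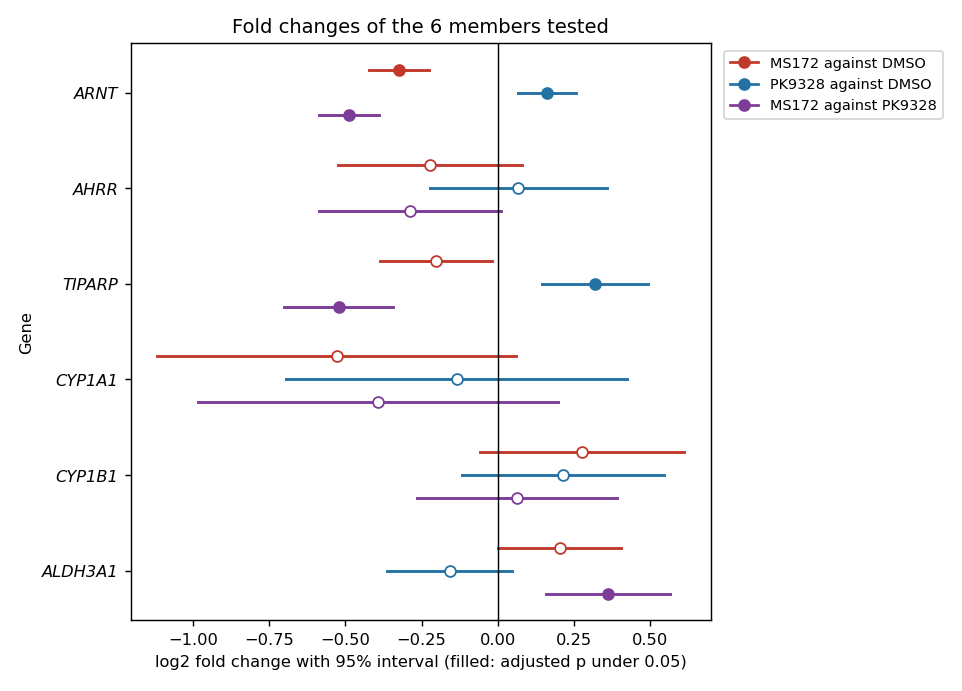
edgeR log2 fold changes of the 6 tested genes with 95% intervals, for MS172 against DMSO, PK9328 against DMSO and MS172 against PK9328, with filled points where the adjusted p was under 0.05. ARNT and TIPARP lie below 0 for MS172 against PK9328, at -0.49 and -0.52, and the intervals of CYP1A1 and CYP1B1 include 0 in each comparison.

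AHR itself was at the limit of detection in all 3 groups. The gene lies on the plus strand of chromosome 7 (16916359 to 17346152 in GENCODE 29 on GRCh38), and its coding transcript AHR-201 spans 17298622 to 17346150. Rounded reads of AHR numbered 1, 2 and 0 in the MS172 libraries, 1, 2 and 1 in the PK9328 libraries, and 0, 0 and 1 in the DMSO libraries. That is 8 reads among 234013580, with at least 1 read in 6 libraries and none in 3. The highest library, MS172 replicate 2, stood at 0.0888 CPM, below the 0.103 to 0.133 CPM that 3 reads are worth in a library of this depth. No group stood apart, AHR did not pass the filter, and no fold change is given for it.

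The few AHR reads were mostly assigned to transcripts other than the main coding form. GENCODE 29 annotates 7 AHR transcripts, and values for 5 of them were used. The other 2 had no matching identifier among the transcripts measured, so reads particular to those forms are not in the AHR count. AHR-201, the coding form, held estimated reads in 1 library only, PK9328 replicate 3. AHR-202, a nonsense-mediated decay form, held at most 2 estimated reads in any library. AHR-205, a non-coding form, held 0.887 of a read in MS172 replicate 2. These values are too few to read, and the part of counting error in them was not tested. PCR duplicates without molecular identifiers are not independent molecules. Genes that overlap the AHR locus, among them the antisense AC073332.1, were at 0 in all 9 libraries.

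**Figure D2:**
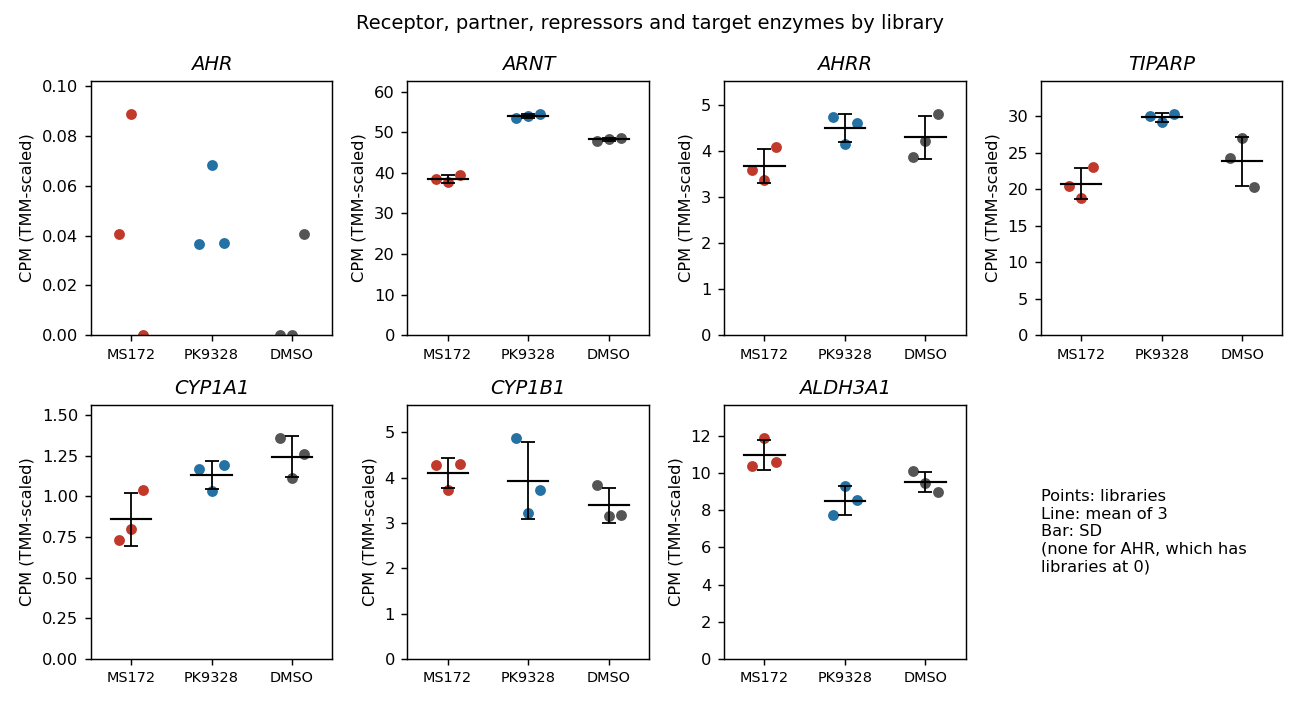
CPM of the 7 genes in each library (points), with the mean (line) and SD (bar) of 3 libraries per group except for AHR, in a panel per gene with an axis of its own from 0. AHR is at most 0.0888 CPM in any library, and ARNT forms 3 separate tiers with PK9328 highest and MS172 lowest.

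ARNT, by contrast, was readily measured and differed between all 3 groups. ARNT encodes the obligate nuclear partner of AHR, which also pairs with the hypoxia factor HIF1A. It lies on the minus strand of chromosome 1 (150809705 to 150876768). Its level was 38.4, 37.7 and 39.5 CPM in the MS172 libraries, 53.5, 54.1 and 54.5 CPM in the PK9328 libraries, and 47.9, 48.3 and 48.7 CPM in the DMSO libraries. The 3 groups did not overlap, with MS172 lowest and PK9328 highest. ARNT fell with MS172 to a mean of 38.5 ± 0.94 CPM, against 48.3 ± 0.40 CPM with DMSO (SD, n = 3 each), which is 0.798-fold (log2 fold change -0.32 ± 0.05, SE; edgeR, adjusted p = 5.5e-06). It rose with PK9328 to 54.0 ± 0.48 CPM, a change of 0.16 ± 0.05 on the log2 scale against DMSO (edgeR adjusted p = 0.016). Between the compounds, ARNT was lower with MS172, with a log2 difference of -0.49 ± 0.05 (edgeR adjusted p = 1.5e-09).

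Both falls of ARNT, with MS172 against DMSO and against PK9328, held under every alternative setting run, at log2 fold changes of -0.58 to -0.31 and -0.82 to -0.47. The rise with PK9328 did not. With fragment length as a covariate, which nearly coincides with PK9328 and cannot be told apart from it, the rise was 0.15 (edgeR adjusted p = 0.59). It was 0.25 with counts rebuilt from length-scaled TPM (0.079). It also missed the threshold without DMSO replicate 1 (0.055), PK9328 replicate 2 (0.052) or PK9328 replicate 3 (0.051), at log2 fold changes of 0.16 in each case.

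The feedback repressors differed in abundance and in what they did. TIPARP encodes a mono-ADP-ribosyltransferase that modifies AHR and limits its activity, and it lies on the plus strand of chromosome 3 (156673235 to 156706770). TIPARP was at 20.5, 18.8 and 23.0 CPM in the MS172 libraries, 30.1, 29.2 and 30.3 CPM in the PK9328 libraries, and 24.3, 27.0 and 20.3 CPM in the DMSO libraries. The PK9328 libraries were close together and above all others, whereas the MS172 and DMSO libraries overlapped. TIPARP rose 1.25-fold with PK9328 against DMSO, which is 0.32 ± 0.08 on the log2 scale (edgeR adjusted p = 0.012). With MS172 its log2 fold change against DMSO was -0.20 ± 0.09 (edgeR adjusted p = 0.082). It was lower with MS172 than with PK9328, 0.696-fold (edgeR adjusted p = 4.8e-05), and that difference kept its call under every alternative, at -0.60 to -0.34.

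As for ARNT, the rise of TIPARP with PK9328 depended on the setting. With fragment length, which nearly coincides with PK9328, as a covariate it was 0.38 (edgeR adjusted p = 0.44), and with length-scaled TPM 0.27 (0.14). Without DMSO replicate 1, DMSO replicate 3 or PK9328 replicate 1 the adjusted p was 0.058, 0.056 and 0.055, and without DMSO replicate 3, the lowest DMSO library, the log2 fold change was 0.22. The MS172 difference passed instead where MS172 replicate 3 or DMSO replicate 3 was left out, at -0.28 (edgeR adjusted p = 0.022) and -0.30 (0.004).

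AHRR encodes a receptor homologue that competes with AHR for ARNT and represses its targets, and it lies on the plus strand of chromosome 5 (304176 to 438291). AHRR was at 3.59, 3.37 and 4.09 CPM in the MS172 libraries, 4.74, 4.17 and 4.62 CPM in the PK9328 libraries, and 3.88, 4.23 and 4.81 CPM in the DMSO libraries. Both compounds overlapped with DMSO, while the MS172 libraries were all below the PK9328 libraries. Its log2 fold change was -0.22 with MS172 (95% interval -0.52 to 0.08; edgeR adjusted p = 0.26) and 0.07 with PK9328 (-0.22 to 0.36; 0.82). Between MS172 and PK9328 it was -0.29 (edgeR adjusted p = 0.1). The AHRR locus overlaps PDCD6, a calcium-binding protein gene on the same strand with a mean of 59.3 CPM, so reads of the shared stretch may have been split between them.

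None of the 3 target enzymes passed the test against DMSO. CYP1A1 encodes the monooxygenase whose induction is the standard readout of AHR ligands, and it lies on the minus strand of chromosome 15 (74719542 to 74725610). It had 18, 18 and 25 rounded reads in the MS172 libraries, 32, 30 and 32 in the PK9328 libraries, and 35, 32 and 31 in the DMSO libraries. In CPM these were 0.734, 0.799 and 1.04 with MS172, 1.17, 1.03 and 1.19 with PK9328, and 1.36, 1.11 and 1.26 with DMSO. The MS172 libraries all lay below the DMSO libraries, and the PK9328 and DMSO libraries overlapped.

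CYP1A1 was 0.693-fold with MS172 against DMSO (95% interval 0.461 to 1.04; edgeR adjusted p = 0.16) and 0.91-fold with PK9328 (0.618 to 1.34; 0.81). In the main fit the intervals thus reach at most 1.04-fold and 1.34-fold, and inductions above these were outside the 95% intervals at this depth. AHR had 8 reads over all 9 libraries, and whether the receptor could respond to a ligand in these cells was not tested. The CYP1A1 values therefore do not decide whether either compound is a ligand. Between MS172 and PK9328 the log2 fold change was -0.39 (edgeR adjusted p = 0.28). With PK9328 the sign was not stable: the log2 fold change was 0.07 with length-scaled TPM and 0.06 with the fragment length covariate, neither of them called. The coding form CYP1A1-201 held 69.0% of the gene's TPM with MS172, 46.4% with PK9328 and 100% with DMSO, and CYP1A1-202 took its place in MS172 replicate 2 and PK9328 replicate 1.

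CYP1B1, a related monooxygenase that also metabolises estradiol, lies on the minus strand of chromosome 2 (38066973 to 38109902). CYP1B1 was at 4.28, 3.73 and 4.30 CPM in the MS172 libraries, 4.88, 3.21 and 3.72 CPM in the PK9328 libraries, and 3.84, 3.16 and 3.18 CPM in the DMSO libraries. All 3 groups overlapped. The fold against DMSO was 1.21 with MS172 (95% interval 0.96 to 1.53; edgeR adjusted p = 0.2) and 1.16 with PK9328 (0.922 to 1.46; 0.42). Between the compounds its log2 fold change was 0.06 (edgeR adjusted p = 0.78), and it turned to -0.07 without PK9328 replicate 2. All CYP1B1 reads were assigned to the coding form CYP1B1-205. RMDN2, which overlaps CYP1B1 on the other strand, averaged 1.24 CPM, and the sources used here do not say whether counting used strand.

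ALDH3A1, an aldehyde dehydrogenase of xenobiotic and oxidative defence, lies on the minus strand of chromosome 17 (19737984 to 19748943). It was at 10.4, 11.9 and 10.6 CPM in the MS172 libraries, 7.74, 9.30 and 8.53 CPM in the PK9328 libraries, and 10.1, 9.47 and 9.01 CPM in the DMSO libraries. The MS172 libraries lay above all others, and the PK9328 libraries overlapped with DMSO. ALDH3A1 was 1.28-fold higher with MS172 than with PK9328 (log2 fold change 0.36 ± 0.10, SE; edgeR, adjusted p = 0.0037). Against DMSO its log2 fold change was 0.20 with MS172 (edgeR adjusted p = 0.11) and -0.16 with PK9328 (0.32). Its main coding form ALDH3A1-212 held 47.1% of the gene's TPM with MS172, 45.6% with PK9328 and 46.3% with DMSO. The difference between the compounds was 0.17 with fragment length as a covariate (edgeR adjusted p = 0.64).

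Per transcript length, the members ranked alike within each group at the top and the bottom. In the DMSO group ARNT averaged 24.2 TPM, ALDH3A1 8.45 TPM, TIPARP 8.26 TPM, AHRR 1.12 TPM, CYP1B1 0.806 TPM, CYP1A1 0.611 TPM and AHR 0.00343 TPM. ALDH3A1 and TIPARP overlapped between DMSO libraries and cannot be ordered there, and the other neighbours did not overlap. Against all tested genes in the DMSO group, 68.6% lay below ARNT, 45.0% below ALDH3A1, 44.5% below TIPARP, 13.9% below AHRR, 11% below CYP1B1 and 8.55% below CYP1A1. The deposited TPM is not TMM-scaled, and its median over the 13914 genes was shifted by a log2 ratio of -0.17 for MS172 against DMSO, 0.05 for PK9328 against DMSO and -0.23 for MS172 against PK9328. Group differences are therefore read from CPM, and TPM serves for levels between genes and shares between transcripts.

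**Figure D3:**
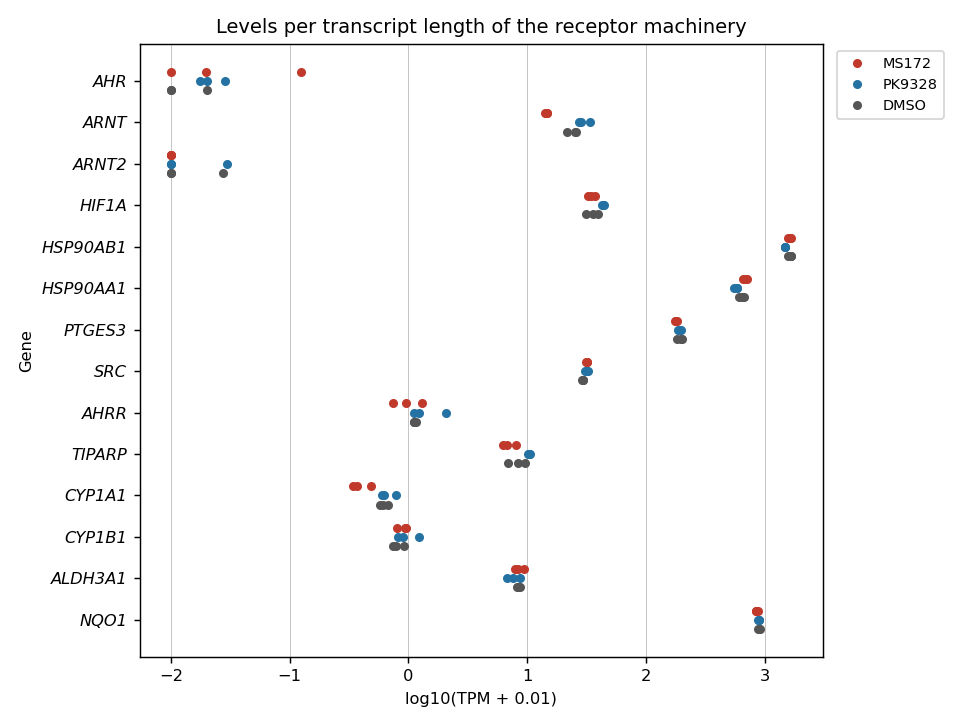
TPM of the 7 genes and of selected partners, chaperones and NQO1 on a log10 axis after adding 0.01, with a point per library, MS172 above PK9328 above DMSO in each row. AHR and ARNT2 lie farthest to the left, AHR at up to 0.115 TPM in MS172 replicate 2, the HSP90 genes and NQO1 lie farthest to the right, and TPM differences of MS172 carry the shift of -0.17 given in the text.

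The transcripts that made up TIPARP differed between groups. TIPARP-201 was at 3.85, 3.30 and 2.10 TPM in the MS172 libraries, 8.20, 8.36 and 8.27 TPM in the PK9328 libraries, and 4.52, 4.99 and 4.79 TPM in the DMSO libraries. The groups did not overlap, and this coding form held 43.9% of TIPARP TPM with MS172, 80.4% with PK9328 and 57.7% with DMSO. TIPARP-207, another coding form, was listed at 0 in 6 libraries and at 2.42 TPM in MS172 replicate 3 and 2.10 and 2.89 TPM in DMSO replicates 1 and 2. Because these forms varied against each other between libraries of a group, their sum is given as well.

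The sum of TIPARP-201 and TIPARP-207 was 3.85, 3.30 and 4.52 TPM with MS172, 8.20, 8.36 and 8.27 TPM with PK9328, and 6.62, 7.87 and 4.79 TPM with DMSO. The groups did not overlap in the sum, but MS172 replicate 3 and DMSO replicate 3 were closer than the TPM shift of -0.17 between these groups, so no order of MS172 and DMSO is read from it. TIPARP-206 went the other way, with 2.91, 2.92 and 3.57 TPM in the MS172 libraries, 2.28, 1.70 and 1.70 TPM in the PK9328 libraries, and 1.70, 1.74 and 2.05 TPM in the DMSO libraries. All MS172 libraries lay above the others, at 44.6% of the gene's TPM, against 18.4% with PK9328 and 22.1% with DMSO. No test was run on transcripts, since the error of assigning reads to forms was not modelled.

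The 3 ARNT forms with at least 10% of the gene's TPM, of 12 measured, were lowest with MS172. ARNT-202, the longest coding form, was at 7.51, 7.25 and 8.0 TPM in the MS172 libraries, 10.9, 9.79 and 10.4 TPM in the PK9328 libraries, and 9.59, 9.82 and 8.72 TPM in the DMSO libraries. ARNT-208, another coding form, was at 1.93, 2.06 and 1.90 TPM with MS172, 4.29, 7.19 and 5.85 TPM with PK9328, and 4.16, 4.62 and 4.37 TPM with DMSO. In both forms the MS172 libraries lay below all others, for ARNT-202 by less than the TPM shift between the nearest MS172 and DMSO libraries. ARNT-209, a retained-intron form, was at 4.38, 5.53 and 4.48 TPM with MS172, 11.2, 15.9 and 11.9 TPM with PK9328, and 7.23, 10.9 and 11.1 TPM with DMSO. It held 33.0% of ARNT TPM with MS172, 43.7% with PK9328 and 40.3% with DMSO, and rested on 29.7 to 120 estimated reads per library, so a large share of the ARNT level in TPM comes from a form with few reads.

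**Figure D4:**
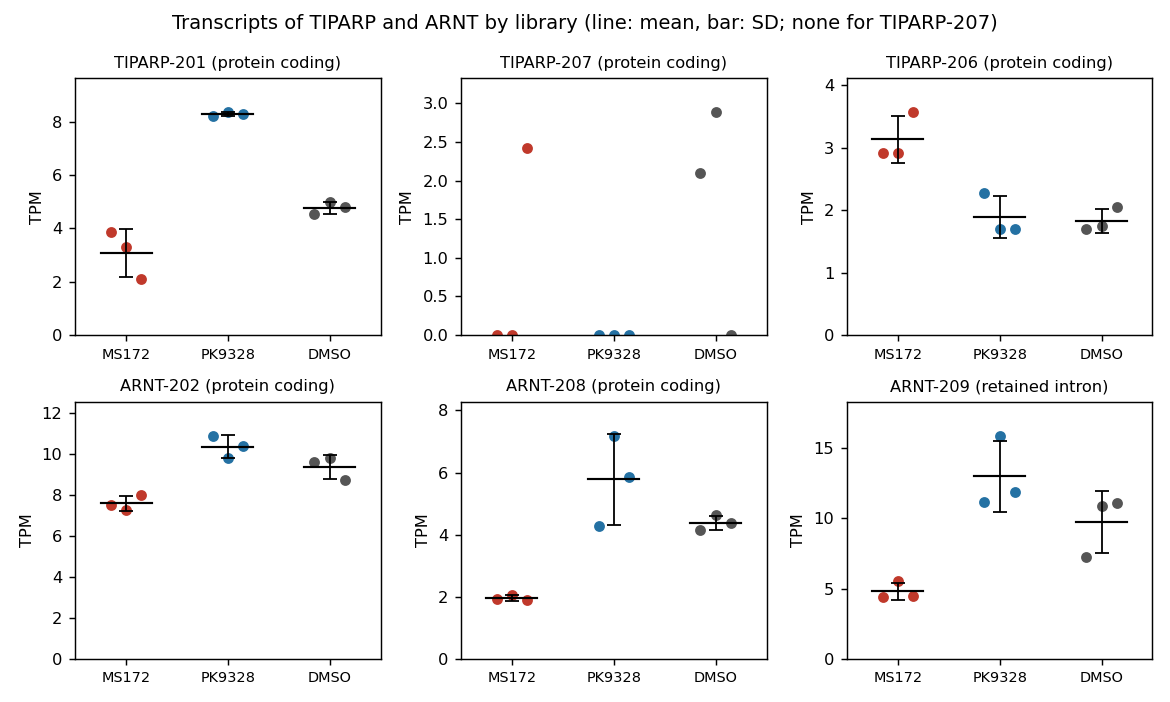
TPM of 3 TIPARP and 3 ARNT transcripts in each library (points), with the mean (line) and SD (bar) per group except for TIPARP-207, which has libraries at 0. TIPARP-201 is highest with PK9328 and TIPARP-206 highest with MS172, and the 3 ARNT forms plotted are lowest with MS172.

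Transcripts of the HSP90 genes, whose proteins hold AHR in the cytosol, were higher with MS172 and lower with PK9328 than with DMSO. Of 4 genes described for the chaperone complex, 3 rose with MS172 against DMSO, where 17.9% of all genes rose, and 2 fell with PK9328 against DMSO, where 7.48% of all genes fell. The 4 were higher with MS172 than with PK9328, as were 23.3% of all genes. Their median log2 fold change was 0.17, -0.13 and 0.24 in these comparisons. HSP90AA1, the inducible HSP90 chaperone, was at 1910, 2040 and 2020 CPM in the MS172 libraries, 1470, 1460 and 1430 CPM in the PK9328 libraries, and 1690, 1690 and 1650 CPM in the DMSO libraries. The groups did not overlap. Its log2 fold change was 0.25 with MS172 (edgeR adjusted p = 7.5e-06) and -0.21 with PK9328 (0.00026).

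HSP90AB1, the constitutive HSP90 chaperone, changed likewise, by 0.14 with MS172 (edgeR adjusted p = 0.0067) and by -0.19 with PK9328 (0.00086). SRC, a kinase carried in the complex, rose with MS172 by 0.20 (edgeR adjusted p = 0.00027). PTGES3, the p23 co-chaperone, gave a call between the compounds only, 0.12 (edgeR adjusted p = 0.0056). The directions of the HSP90 genes were those of TMM, RLE and length-scaled TPM counts, whereas in unscaled deposited TPM HSP90AB1 averaged 1620 with MS172 and 1640 with DMSO. Both HSP90 falls with PK9328 lost their call with fragment length as a covariate (-0.10 and -0.13; edgeR adjusted p = 0.65 and 0.52). With the covariate 2 of the 4 genes, not 4, were called between MS172 and PK9328. HSP90AB1 with MS172 missed the threshold without MS172 replicate 2 (0.12, edgeR adjusted p = 0.052). Between the compounds, the PTGES3 call was lost without MS172 replicate 2 (edgeR adjusted p = 0.05). Both HSP90 genes have close pseudogene copies, among which reads may have been split.

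Few calls were made among other bHLH-PAS genes. Of 10 relatives of AHR and ARNT, 7 were tested. With MS172 against DMSO, 0 of the 7 were called by edgeR, limma-voom or DESeq2, with 2 at an unadjusted p under 0.05 by each. In that comparison edgeR called 35.1% of all genes tested. SIM2, a neural bHLH-PAS factor, was 0.854-fold with MS172 (95% interval 0.75 to 0.971; edgeR adjusted p = 0.051), with no overlap with DMSO. Counted over the relatives tested, and not for SIM2 alone, MS172 against DMSO gave a call under 3 settings. These were 1 lower with a filter of 1 CPM, 1 lower with the covariate and 1 higher without DMSO replicate 2. The intervals were wide for EPAS1 (0.633 to 1.55-fold with MS172) and ARNTL2 (0.368 to 1.54-fold with PK9328). ARNT2, the partner that can stand in for ARNT, reached at most 0.0388 CPM, and SIM1 was at 0 in every library. HIF1A, which competes for ARNT, was at 106, 105 and 114 CPM in the MS172 libraries, 111, 112 and 109 CPM in the PK9328 libraries, and 101, 107 and 95.7 CPM in the DMSO libraries. It was higher in every PK9328 library than in any DMSO library and rose by 0.13 on the log2 scale (edgeR adjusted p = 0.038), a call that DESeq2 (adjusted p = 0.057) and 7 other settings did not make, each DMSO or PK9328 library but DMSO replicate 2 among those that ended it when left out. HIF1A was the 1 edgeR call among the 7 with PK9328 against DMSO, where 15.5% of all genes were called. Between MS172 and PK9328, 0 of the 7 were called by edgeR, limma-voom or DESeq2, with 1, 1 and 0 at an unadjusted p under 0.05. There edgeR called 47.7% of all genes.

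Of the 10 genes listed as coregulators and turnover factors of the receptor, all tested, 2 rose and 4 fell with MS172 against DMSO, beside 17.9% and 17.2% of all genes, with a median log2 fold change of -0.05. RELB, an NF-kB subunit that can pair with AHR, was at 45.2, 45.0 and 43.4 CPM in the MS172 libraries, 31.9, 32.5 and 33.4 CPM in the PK9328 libraries, and 28.9, 28.5 and 28.5 CPM in the DMSO libraries. The groups did not overlap. RELB rose by 0.64 on the log2 scale with MS172 (edgeR adjusted p = 7.6e-11) and by 0.19 with PK9328 (0.015), and RELA, the classical NF-kB subunit, rose by 0.15 with MS172 (0.011). The coactivator NCOA2 fell by 0.33 with MS172 (edgeR adjusted p = 0.0041), the corepressor NRIP1 by 0.27 (0.0043), the coactivator NCOA3 by 0.15 (0.018) and the transcription factor SP1 by 0.13 (0.037). With length-scaled TPM, 2 of the 10 rose, RELB and DDB1, and 0 fell: the adjusted p of these 4 falls was 0.055 to 0.13 by edgeR, with 6 of the 10 at an unadjusted p under 0.05, and RELA was not called (0.59). RELA also missed the threshold without MS172 replicate 2 or DMSO replicate 2 (0.083 and 0.062), NCOA3 without MS172 replicate 1 or 2 or DMSO replicate 2 (0.054 to 0.13), and SP1 without any MS172 library or DMSO replicate 2 (0.055 to 0.21), as well as with RLE scaling and DESeq2.

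With PK9328, 1 of these 10 rose, RELB, and 1 fell, DDB1. Over all genes 7.98% rose and 7.48% fell, so the counts were near that share. DDB1, an adaptor of the ubiquitin ligase through which AHR also acts, fell by 0.12 (edgeR adjusted p = 0.017). RELB was not called with the covariate, with length-scaled TPM or without PK9328 replicate 3 (edgeR adjusted p = 0.67, 0.057 and 0.065), nor DDB1 with the covariate or without DMSO replicate 1 or PK9328 replicate 1 (0.69, 0.069 and 0.082). Between the compounds, 2 of the 10 were higher with MS172, RELB and DDB1, and 3 were lower, NCOA2, NCOA3 and NRIP1. These counts too were near the share of all genes, 23.3% higher and 24.4% lower. The covariate ended the calls of DDB1, NCOA2 and NRIP1 (edgeR adjusted p = 0.51, 0.58 and 0.31).

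Beyond the members, 17 genes were listed as further targets of the receptor, and most did not pass the filter. Of these, 10 did not pass the filter, among them the close CYP1A1 relative CYP1A2 (at most 0.0347 CPM), the drug exporter ABCG2 (0.208 CPM) and the conjugating enzymes UGT1A1 (0.184 CPM) and UGT1A6 (0.736 CPM), which share exons. GSTA1, a glutathione transferase, and IDO1, a tryptophan-degrading enzyme, were at 0 in all 9 libraries. Of the 7 tested, 2 rose and 1 fell with MS172 against DMSO, where 17.9% of all genes rose and 17.2% fell, so the counts were near that share. With PK9328 against DMSO, 3 rose and 1 fell, where 7.98% of all genes rose and 7.48% fell. The medians were 0.08 and -0.05.

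The same 3 genes, SLC7A5, EREG and HES1, changed with both compounds, but these comparisons share the DMSO libraries. SLC7A5, the large neutral amino acid transporter that also carries kynurenine, was at 469, 465 and 477 CPM in the MS172 libraries, 489, 489 and 485 CPM in the PK9328 libraries, and 372, 366 and 375 CPM in the DMSO libraries. The DMSO libraries lay below all others, and SLC7A5 rose by 0.34 with MS172 (edgeR adjusted p = 4.8e-09) and by 0.39 with PK9328 (9.9e-10). EREG, the growth factor epiregulin, was at 278, 281 and 276 CPM in the MS172 libraries, 295, 293 and 268 CPM in the PK9328 libraries, and 202, 246 and 209 CPM in the DMSO libraries. Its DMSO libraries lay below all others. EREG rose by 0.35 with MS172 (edgeR adjusted p = 0.0035) and by 0.38 with PK9328 (0.0047), a rise that was not called with the fragment length covariate (0.45, adjusted p = 0.29).

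HES1, a Notch-pathway repressor, was at 30.2, 29.7 and 29.4 CPM in the MS172 libraries, 30.5, 31.1 and 30.3 CPM in the PK9328 libraries, and 42.4, 41.5 and 41.6 CPM in the DMSO libraries. Its DMSO libraries lay above all others, and HES1 fell by 0.49 with MS172 (edgeR adjusted p = 1.5e-08) and by 0.45 with PK9328 (1.9e-07). NFE2L2, which encodes NRF2, was at 61.3, 65.1 and 62.7 CPM in the MS172 libraries, 76.8, 74.7 and 75.8 CPM in the PK9328 libraries, and 53.8, 62.4 and 58.7 CPM in the DMSO libraries. The PK9328 libraries lay above all others, and MS172 and DMSO overlapped. NFE2L2 rose with PK9328 by 0.38 (edgeR adjusted p = 1.7e-06). It was lower with MS172 than with PK9328, at -0.27 (edgeR adjusted p = 4.2e-05), a call that was lost with the covariate (0.055).

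NQO1, a quinone reductase driven by both AHR and NRF2, was the most abundant target, at 721, 760 and 706 CPM in the MS172 libraries, 649, 665 and 680 CPM in the PK9328 libraries, and 708, 674 and 685 CPM in the DMSO libraries. The MS172 libraries overlapped with DMSO but lay above the PK9328 libraries. NQO1 was higher with MS172 than with PK9328 by 0.13 (edgeR adjusted p = 0.0044), and neither compound differed from DMSO by the test (0.08, adjusted p = 0.095, and -0.05, 0.4). That call was lost with the covariate (edgeR adjusted p = 0.31) and without MS172 replicate 2 (0.051). XDH, xanthine dehydrogenase, was the tested target with the largest log2 fold change against DMSO by size, -0.65 with MS172, at a mean of 0.938 CPM against 1.48 CPM with DMSO, and was not called (edgeR adjusted p = 0.067).

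**Figure D5:**
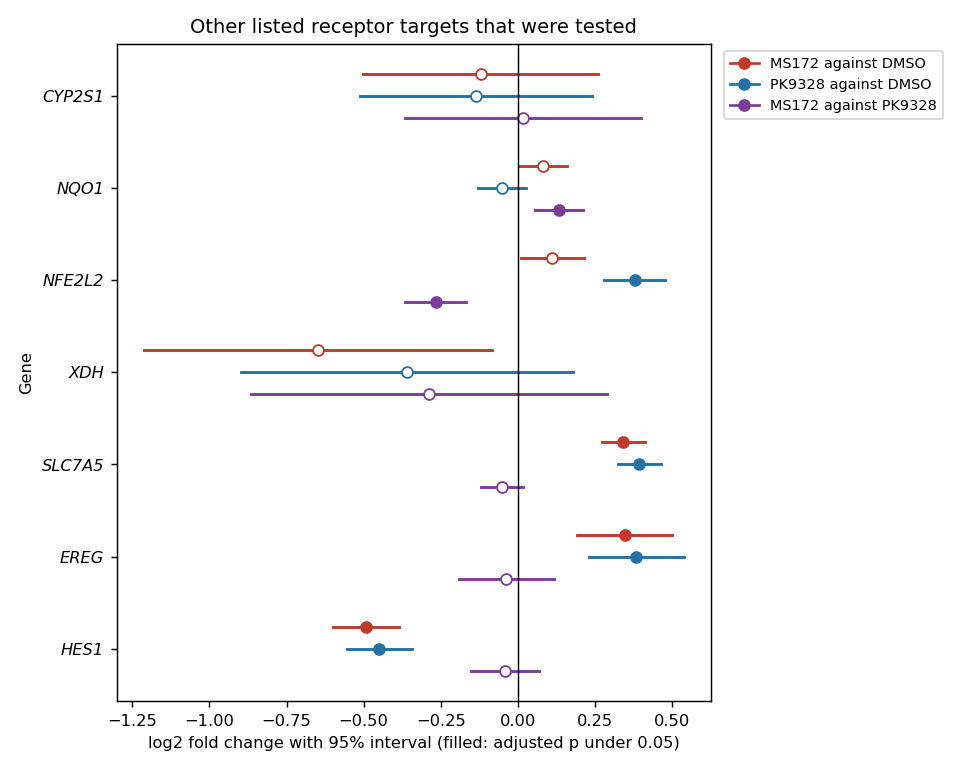
edgeR log2 fold changes with 95% intervals of the 7 further targets that were tested, for MS172 against DMSO, PK9328 against DMSO and MS172 against PK9328, with filled points where the adjusted p was under 0.05. SLC7A5 and EREG lie above 0 and HES1 below 0 for both compounds against DMSO, and NFE2L2 stands at 0.38 for PK9328.

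Of 10 genes listed for the kynurenine route and related metabolism, from which ligands of the receptor can arise, 6 did not pass the filter. The first enzymes of the route were near 0, with IDO1 and IDO2 at 0 in every library and TDO2 at most 0.0734 CPM. Of the 4 tested, KYAT1, a kynurenine aminotransferase, rose with MS172 by 0.30 (edgeR adjusted p = 0.0041), a call that was lost without DMSO replicate 2 (0.052). AFMID, the formamidase, fell with MS172 by 0.26 (edgeR adjusted p = 0.0081), and its call was lost with length-scaled TPM (0.064) and without MS172 replicate 3 (0.051). Over all genes, 17.9% rose and 17.2% fell with MS172. With PK9328, 0 of the 4 were called by edgeR, DESeq2 or limma-voom, with 0 at an unadjusted p under 0.05. There edgeR called 15.5% of all genes, so 0 of so few genes says little. Between MS172 and PK9328, 23.3% of all genes were higher and 24.4% lower with MS172. Of the 4, KYAT1 was higher (0.20, edgeR adjusted p = 0.035) and AFMID lower (-0.32, 0.00087) with MS172. Both calls were lost with length-scaled TPM (edgeR adjusted p = 0.11 and 0.12) and with the covariate, under which AFMID stood at 0.02, and KYAT1 was also lost without MS172 replicate 1 or 2 or PK9328 replicate 1 or 2 (0.058 to 0.16).

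The coding genes whose log2 CPM followed that of ARNT most closely over the 9 libraries, among 8791 with a mean of at least 10 CPM, were ZKSCAN5 (Pearson r = 0.993), LZTR1 (0.993) and R3HCC1L (0.990). ZKSCAN5, a zinc finger gene, averaged 23.6 CPM with MS172, 38.4 CPM with PK9328 and 33.4 CPM with DMSO, the same order of groups as ARNT. The genes most like TIPARP were AP3M1 (r = 0.981), MCPH1 (0.975) and SH2B3 (0.972). AP3M1, an adaptor subunit of vesicle transport, averaged 59.8 CPM with MS172, 67.6 CPM with PK9328 and 63.6 CPM with DMSO. These correlations describe 9 libraries in 3 groups that share depth and processing, and they carry no p.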

How the data were processed

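The deposited tables give, per the file headers, length, effective length, TPM and an estimated count of reads for 197653 transcripts in each of 9 libraries. TPM was scaled by the authors to transcript length and library, as the headers name it. FastQC 0.11.8 and the build hg38 are credited to the submitters' processing notes. For the quantification program and its index, the record is "not given in the sources used here".

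By identifier, 193348 transcripts matched GENCODE 29, and their estimated counts were summed over 56865 genes and rounded; the unmatched rest held 0.356% to 0.382% of reads. edgeR 4.0.16 in R 4.3.3 (robust quasi-likelihood, TMM, filterByExpr, Benjamini-Hochberg adjustment, 95% intervals) fitted all 9 libraries with no replicate term and 6 residual degrees of freedom. Alternatives were RLE factors, DESeq2 1.42.0, limma-voom (limma 3.58.1), 2 other filters, a replicate block, length-scaled TPM counts, fragment length (transcripts of at least 3000 bases) as a covariate, only the libraries compared, and each library left out. For lists other than the further targets, counts under these were added after seeing the data. The fit was tested on simulated data.

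Members and lists were chosen with earlier results of these data known. Named are all members, list genes past the threshold in any comparison or needed to say what was below the filter, and the 3 genes most like each member of at least 10 CPM. Transcripts are named only where they held at least 10% of a gene's TPM in a group. Several such forms of AHRR and ALDH3A1 are not described. A gene of the chaperone list is not reported here and is left out of that list's counts. XDH, SIM2, EPAS1, ARNTL2 and the single marker genes were named after their values were seen. Promoters are from RefSeq GRCh38.p14.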

Additional observations from a re-analysis of the deposited data

How the results depend on the processing

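Of 270 recomputed log2 fold changes of the 6 tested members, 250 kept their direction and side of the threshold. In 3 a call was gained, in 11 a call was lost, and in 6 the sign turned, none of these 6 called. The sign turned for AHRR with PK9328 against DMSO with the covariate (-0.0438) and without DMSO replicate 1 (-0.0016, in a range of -0.0016 to 0.1501 with each library left out), for CYP1A1 with PK9328 against DMSO with length-scaled TPM (0.0702) and the covariate (0.0598), for ALDH3A1 with PK9328 against DMSO with the covariate (0.0266), and for CYP1B1 between the compounds without PK9328 replicate 2 (-0.0694, in a range of -0.0694 to 0.2449). Members called with MS172 against DMSO numbered 1, and 2 with no filter, where TIPARP was added. Members called with PK9328 against DMSO numbered 2, and 0 with length-scaled TPM and with the fragment length covariate, where calls over all genes fell to 1067 and 175, against 2151. Between MS172 and PK9328 the covariate gave 2462 calls against 6641 and 0 further targets against 2. The cause of these differences was not tested, although the covariate and PK9328 nearly coincide and so cannot be told apart.

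Leaving out each library in turn gave 1 to 2 members called with MS172 against DMSO, 0 to 2 with PK9328 against DMSO (0 without DMSO replicate 1) and 3 in each case between the compounds. Over all genes it gave 3874 to 4453, 1384 to 2215 and 5651 to 6150 calls, the PK9328 count being 1384 without DMSO replicate 1 and 1400 without PK9328 replicate 2. Further targets called numbered 3 to 4, 4 and 1 to 2. Equal replicate numbers did not pair the libraries: deviations of same-numbered libraries correlated at -0.0569 to 0.0174, and those of others at -0.0491 to 0.0564. The replicate block called 4597, 1884 and 6405 genes and the same numbers of members and further targets as without it (1, 2 and 3, and 3, 4 and 2). Among the other list genes it lost HIF1A with PK9328 (adjusted p = 0.064). The depth limits AHR, where 3 reads are worth 0.103 to 0.133 CPM, and CYP1A1, with 18 to 35 reads.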
